A study of Mus musculus with 14 samples.

Results

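The ERK feedback inhibitors described here were 10 genes: the phosphatase genes Dusp4, Dusp5 and Dusp6, the Sprouty genes Spry1, Spry2 and Spry4, the Spred genes Spred1, Spred2 and Spred3, and Il17rd, which encodes Sef. They were chosen by name as phosphatases and inhibitors of ERK signalling, each was measured by 1 probe set, and they are 10 of 18784 named genes on the arrays. Transcript levels were measured in whole lungs of mice at postnatal day 6 on 14 Affymetrix mouse Gene ST arrays. The groups were 4 Atxn1L -/- lungs with 4 wild-type (WT) lungs from Atxn1L heterozygous intercrosses, and 3 Atxn1 -/- lungs with 3 WT lungs from Atxn1 heterozygous intercrosses, all on C57BL/6J. The knockouts were homozygous offspring, the sources used here do not give the construct of either allele, no treatment is named, and litter and sex are not stated. Knockouts and wild types are described as pairs, without saying which arrays form a pair. In whole lung, fewer cells of a type and less RNA per cell cannot be told apart.

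Receptor tyrosine kinases such as the FGF and EGF receptors signal through Ras, Raf and MEK to the kinase ERK, which induces its own inhibitors. Dusp proteins remove phosphate from ERK, Sprouty and Spred proteins act between the receptor and Raf, and Sef restrains FGF signalling. Several of these genes are known targets of Capicua, a repressor that ERK inactivates and that binds DNA together with ataxin-1 or ataxin-1-like. In the developing lung, Fgf10 signalling to the epithelium induces Spry2, and the loop is best known from airway branching.

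Capicua is known for binding the octamers TGAATGAA and TGAATGGA, so the promoters of the inhibitors were searched for both, and for the ETS core CCGGAAG, on both strands, in the window of 250 bases before to 50 bases after the start site (RefSeq, GRCm38.p6). The table held this window for 8 of the 10 genes. Either octamer was found in 1 of them, Spred3, where TGAATGAA lies 10 to 3 bases before the start site used, on the strand of the gene. That start site lies inside the annotated span of Spred3, chr7:29157783-29170070 (minus strand). No window at the 29170070 end of the span was searched. Other forms of the octamer were not searched, so windows without a match may hold one. No ETS core was found in the 8 windows. Among 32851 promoter windows of this length, 1.30% held TGAATGAA, 1.21% TGAATGGA, 2.47% either octamer and 8.86% the ETS core. The same search found no octamer and no ETS core in the windows of Etv1 and Etv5. No window was available for Etv4, so it was not searched. Sites outside the windows were not searched. The match in Spred3 describes these letters and does not show a bound site. The 250 bases before the start site are shown for the 3 Spred genes, because this family holds the match and the inhibitors of largest change in the Atxn1l knockout, with the octamer in capitals. They lie at chr2:117120821-117121070 (plus strand) for Spred1, chr11:19924192-19924441 (plus strand) for Spred2 and chr7:29168648-29168897 (minus strand) for Spred3.
Spred1: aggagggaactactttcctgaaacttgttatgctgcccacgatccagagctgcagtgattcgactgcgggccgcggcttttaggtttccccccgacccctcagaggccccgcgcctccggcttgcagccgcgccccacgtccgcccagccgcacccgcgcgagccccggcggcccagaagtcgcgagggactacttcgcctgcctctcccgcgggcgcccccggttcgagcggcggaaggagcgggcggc
Spred2: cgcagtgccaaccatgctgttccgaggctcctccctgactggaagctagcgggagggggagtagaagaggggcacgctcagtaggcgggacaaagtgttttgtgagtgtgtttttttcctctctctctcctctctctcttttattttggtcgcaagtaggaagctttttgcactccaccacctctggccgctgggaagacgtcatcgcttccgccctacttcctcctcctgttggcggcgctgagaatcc
Spred3: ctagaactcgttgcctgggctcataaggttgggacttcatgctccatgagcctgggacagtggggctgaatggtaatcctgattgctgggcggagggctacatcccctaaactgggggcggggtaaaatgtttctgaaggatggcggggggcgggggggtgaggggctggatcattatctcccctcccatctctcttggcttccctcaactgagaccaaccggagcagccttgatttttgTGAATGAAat

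Values below are log2 RMA levels. The authors normalized the 8 arrays of the Atxn1l set and the 6 arrays of the Atxn1 set separately, so a knockout was set only against the wild types of its set, and no level was compared between sets or between genes. Changes are knockout minus wild type from limma over all 21212 probe sets, and a gene counts as changed at a Benjamini-Hochberg adjusted p under 0.05. The medians of single arrays spanned 8.44 to 8.53 (Atxn1l set) and 9.21 to 9.24 (Atxn1 set), and the number of arrays limits the precision. Atxn1l itself changed by -2.58 (SE 0.09, limma adjusted p = 1.18e-06) in its knockout, with no overlap between the groups. The Atxn1 probe set differed by 0.01 (SE 0.07, limma adjusted p = 0.999886) in the Atxn1 knockout. Whether this probe set covers the deleted part is not known, so its level does not test the genotype. The loss of Atxn1 thus rests on the sample titles. The titles were used because the series' design text names Atxn1 -/- for both sets. The defining markers of alveolar type 2 cells were high on every array, as in lung. The summed level of 5 alveolar type 2 genes was 15.406 to 15.432 in the Atxn1l knockouts and 15.434 to 15.469 in their wild types. All these knockouts thus lay below all their wild types, by a small margin. Of the 5 genes, 4 had a change below 0, 1 above 0 and 0 passed. The part of these cells in the inhibitors' values was not tested. Neutrophil markers (5 genes) stood high on 2 arrays, at a summed log2 level of 13.51 in Atxn1l knockout replicate 1 and 13.98 in WT replicate 3 of the Atxn1 set. Xist, which is transcribed in female cells, was low in 1 Atxn1l knockout against 2 of the wild types of that set, and likewise in 1 Atxn1 knockout against 2 wild types.

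No ERK feedback inhibitor passed the test in either knockout. In the Atxn1l knockout 0 of 10 inhibitors passed, where 0.0424% of all probe sets did, and 1 of 10, Spred3, had an unadjusted p under 0.05, against 8.5% of all probe sets. In the Atxn1 knockout 0 of 10 passed, as did 0% of all probe sets, and 1 of 10, Dusp4, had an unadjusted p under 0.05, against 1.22%. That count was 5 of 10 with array weights and 2 of 10 with a trended robust prior. The shares of all probe sets under these settings are not given here, so these counts have no background. The changes ran from -0.08 (Spry2) to 0.15 (Spred2) in the Atxn1l knockout and from 0.01 (Dusp6) to 0.25 (Dusp4) in the Atxn1 knockout. The 95% intervals of all 10 genes lay between 0.812-fold and 1.26-fold of wild type in the Atxn1l knockout. In the Atxn1 knockout they lay between 0.844-fold and 1.33-fold. A change of 1.5-fold in either direction was thus outside the interval of every inhibitor in both knockouts, on the scale of these arrays. The groups overlapped for all 10 genes in the Atxn1l set, where 5.32% of all probe sets had groups that did not.

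**Figure D1:**
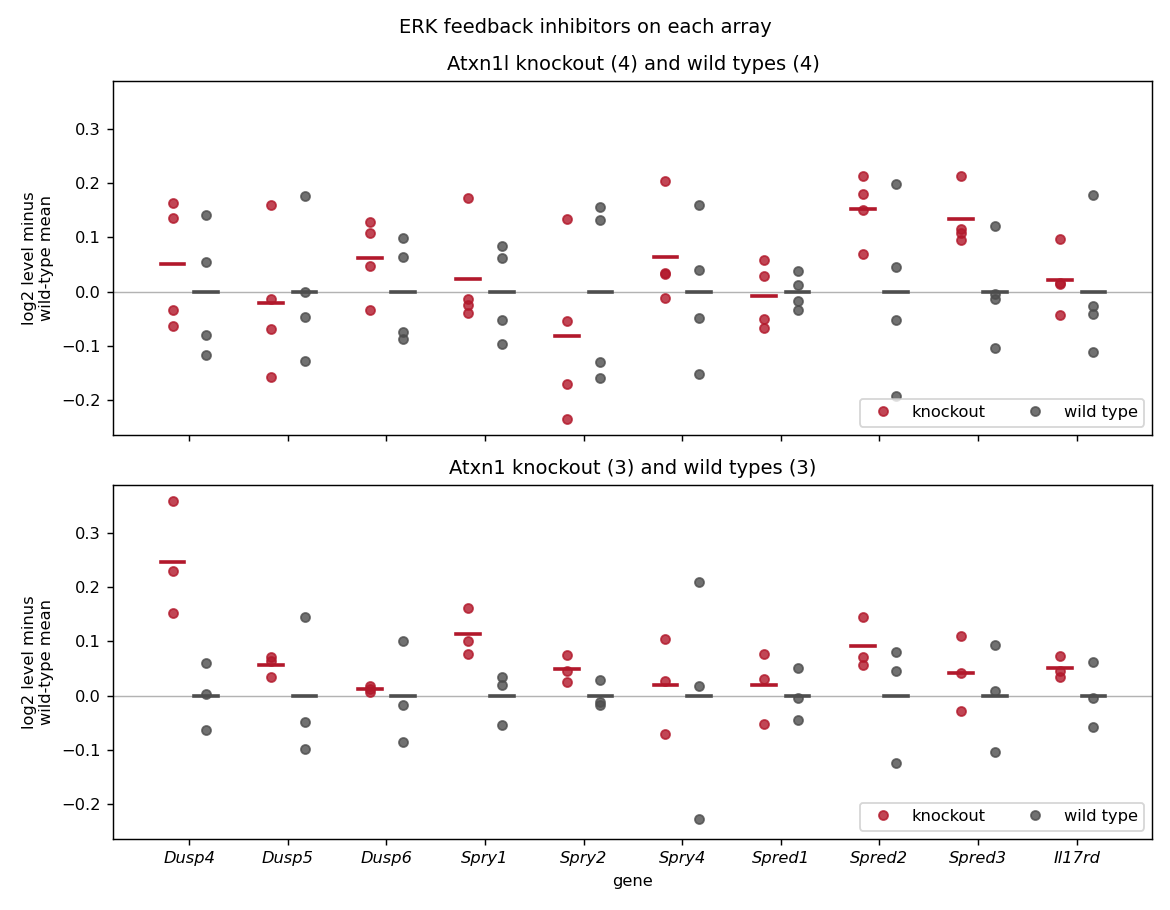
Log2 level of each ERK feedback inhibitor on each array minus the mean of its own wild types (y axis), with the knockouts in red to the left of the wild types in grey for each gene (x axis); points are arrays and bars group means. The knockout points overlap the wild types for every gene of the Atxn1l set, while Dusp4 and Spry1 do not overlap in the Atxn1 set.

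Dusp4, a nuclear phosphatase of MAP kinases, had the smallest p of the 10 genes in the Atxn1 set. Dusp4 had 9.40, 9.48 and 9.61 in Atxn1 knockouts, against 9.25, 9.31 and 9.19 in their wild types. All 3 knockouts lay above all 3 wild types, with a change of 0.25 (SE 0.07, 95% interval 0.08 to 0.41). That is 1.19-fold, with a limma adjusted p of 0.999886, an unadjusted p of 0.00882 by limma and rank 36 of 21212 probe sets by p. The exact permutation p was 0.1, the smallest that 3 against 3 arrays allow. In the Atxn1l set Dusp4 had 8.39, 8.37, 8.20 and 8.17 in knockouts and 8.37, 8.15, 8.12 and 8.29 in wild types. These groups overlapped, with a change of 0.05 (SE 0.08, limma adjusted p = 0.912). The difference between the effects of Atxn1l and Atxn1 loss on Dusp4 was -0.20 (SE 0.11, 95% interval -0.43 to 0.04, limma adjusted p = 0.999553), so no difference was shown.

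Dusp6, a cytoplasmic phosphatase specific for ERK and a common readout of its activity, had 11.29, 11.35, 11.21 and 11.37 in Atxn1l knockouts, against 11.34, 11.31, 11.16 and 11.17 in wild types. Knockout replicates 2 and 4 lay above all wild types, and the change was 0.06 (SE 0.06, limma adjusted p = 0.843). With Atxn1 lost, it had 11.97, 11.96 and 11.97 in knockouts and 11.87, 11.94 and 12.06 in wild types. The knockouts lay inside the range of the wild types, with a change of 0.01 (SE 0.06, limma adjusted p = 0.999886). Dusp5, a nuclear phosphatase specific for ERK, had 9.11, 9.29, 9.06 and 8.97 in Atxn1l knockouts and 9.13, 9.30, 9.08 and 8.999 in wild types. Its groups spanned nearly the same range, with a change of -0.02 (SE 0.08, limma adjusted p = 0.975). In Atxn1 knockouts Dusp5 had 10.03, 10.04 and 9.998, against 9.87, 9.92 and 10.11 in wild types. The change was 0.06 (SE 0.07), again with the knockouts inside the range of the wild types.

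Among the Sprouty genes, whose products block Ras and Raf activation by growth factor receptors, Spry1 had the largest change in the Atxn1 set. It had 12.02, 12.04 and 12.10 in Atxn1 knockouts, against 11.89, 11.98 and 11.96 in wild types. The groups did not overlap, with a change of 0.11 (SE 0.05, limma adjusted p = 0.999886, exact permutation p = 0.1). Dusp4 and Spry1 were thus 2 of 10 inhibitors whose knockout arrays all lay above the wild types, against 2.85% of all probe sets. In the Atxn1l set Spry1 had 11.58, 11.79, 11.60 and 11.59 in knockouts and 11.70, 11.68, 11.52 and 11.57 in wild types. Replicate 2 was the only knockout above all wild types there, and the change was 0.02 (SE 0.06, limma adjusted p = 0.963).

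Spry2 was the member with the lowest change of the Atxn1l set, at -0.08 (SE 0.10, limma adjusted p = 0.886). It had 9.20, 9.39, 9.02 and 9.09 in Atxn1l knockouts, against 9.39, 9.41, 9.13 and 9.10 in wild types. Both groups held arrays near 9.4 and arrays near 9.1. In the Atxn1 set it had 10.07, 10.02 and 10.04 in knockouts and 9.97, 10.02 and 9.98 in wild types, a change of 0.05 (SE 0.05), with 2 of 3 knockouts above all wild types. Its pooled SD between arrays of a group was 0.164 in the Atxn1l set and 0.0254 in the Atxn1 set, where the medians over all probe sets were 0.0931 and 0.0890. Spry4, induced like its relatives by growth factor signalling, had 10.91, 11.12, 10.95 and 10.95 in Atxn1l knockouts and 10.87, 11.08, 10.77 and 10.96 in wild types. The change was 0.06 (SE 0.07, limma adjusted p = 0.880), with the groups overlapping. The Atxn1 knockouts had 11.65, 11.57 and 11.47 for Spry4, against 11.32, 11.56 and 11.75 in wild types. The wild types alone spanned the whole range, and the change was 0.02 (SE 0.11).

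The Spred genes encode membrane-bound inhibitors of Ras and Raf, and Spred1 is known to bring neurofibromin to the membrane. The highest changes of the Atxn1l set were found in this family. Spred2 had 10.59, 10.68, 10.70 and 10.74 in Atxn1l knockouts, against 10.72, 10.33, 10.47 and 10.57 in wild types. All 4 knockouts lay above the mean of the wild types, but only replicate 4 lay above WT replicate 1, and the change was 0.15 (SE 0.08, limma adjusted p = 0.641). Without WT replicate 1 it was 0.22 (SE 0.07, limma adjusted p = 0.458) and without WT replicate 2 it was 0.09 (SE 0.07, limma adjusted p = 0.796). Spred3, whose promoter window holds the Capicua octamer shown above, had 8.13, 8.25, 8.15 and 8.15 in Atxn1l knockouts and 8.04, 8.16, 8.03 and 7.94 in wild types. Here 3 of 4 wild types lay below all knockouts and WT replicate 2 lay among them. The change was 0.13 (SE 0.06, 95% interval 0.0054 to 0.26), or 1.10-fold, with an unadjusted p of 0.0426 by limma, a limma adjusted p of 0.571 and an exact permutation p of 0.114. Spred1 had 10.65, 10.57, 10.55 and 10.68 in Atxn1l knockouts and 10.63, 10.66, 10.58 and 10.60 in wild types, a change of -0.0078 (SE 0.05, limma adjusted p = 0.984).

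The Spred genes overlapped between the groups of the Atxn1 set. Spred2 had 11.32, 11.23 and 11.25 in Atxn1 knockouts, against 11.26, 11.22 and 11.05 in wild types. Its change of 0.09 (SE 0.07) was 0.03 (SE 0.06) without WT replicate 3, the array with high neutrophil markers. Without the same array Spry4 had 0.12 (SE 0.10), Dusp5 0.13 (SE 0.06) and Dusp6 0.06 (SE 0.06), each above its value with all arrays, and Spred1 had -0.0037 (SE 0.07). Spred3 had 8.59, 8.73 and 8.66 in knockouts and 8.71, 8.52 and 8.63 in wild types, a change of 0.04 (SE 0.07). Spred1 had 11.66, 11.53 and 11.62 in knockouts and 11.58, 11.63 and 11.54 in wild types, a change of 0.02 (SE 0.06). None of the 3 had all knockouts on one side of the wild types. Il17rd, whose product Sef is a transmembrane inhibitor of FGF receptor signalling, had 9.19, 9.33, 9.24 and 9.24 in Atxn1l knockouts and 9.41, 9.19, 9.12 and 9.20 in wild types. The highest value was a wild type, and the change was 0.02 (SE 0.07, limma adjusted p = 0.968). In the Atxn1 set it had 9.82, 9.79 and 9.78 in knockouts, against 9.74, 9.81 and 9.69 in wild types, with a change of 0.05 (SE 0.05) and only replicate 1 of the knockouts above all wild types.

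**Figure D2:**
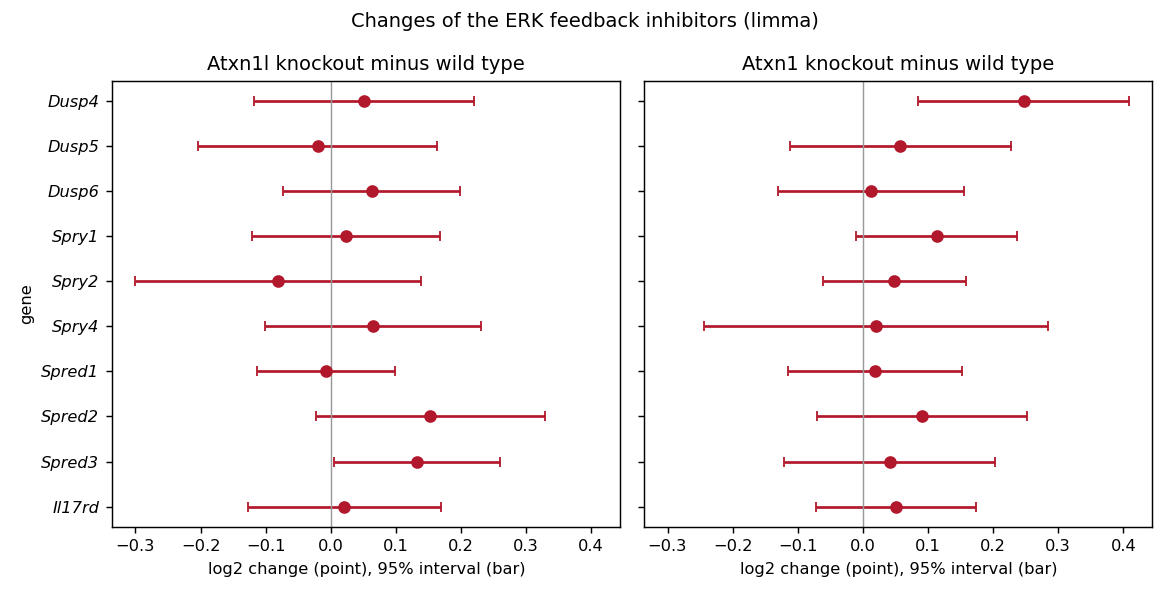
Log2 change of each ERK feedback inhibitor, knockout minus wild type, with its 95% interval from limma (x axis), for the Atxn1l knockout on the left and the Atxn1 knockout on the right. Only the intervals of Spred3 on the left and Dusp4 on the right lie above 0, before any adjustment for the number of probe sets.

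Read together, 7 of 10 inhibitors had a change above 0 in the Atxn1l knockout, where 51.3% of all probe sets did, with a median of 0.04 against 0.0026 over all probe sets. In the Atxn1 knockout 10 of 10 lay above 0, where 47.3% of all probe sets did, with a median of 0.05 against -0.0038. In both knockouts 7 of 10 lay above 0, as did 24.4% of all probe sets. None of the single changes passed, and the direction of some moved with the scaling. With each array centred on its median, 5 of 10 lay above 0 in the Atxn1l knockout and 10 of 10 in the Atxn1 knockout. This centring moved the median over all probe sets to -0.02 in the Atxn1l knockout, with the inhibitors' median at 0.01. After cyclic loess 7 of 10 and 9 of 10 lay above 0. The shares of all probe sets above 0 under these and the following settings are not given here. For the Atxn1 knockout the count was 7 of 10 with array weights, where Dusp5 (-0.07), Dusp6 (-0.08) and Spry4 (-0.17) lay below 0. It was 8 of 10 with the Xist level as a covariate, and 8 of 10 without knockout replicate 1 or without WT replicate 1. For the Atxn1l knockout it was 9 of 10 with the Xist covariate and 5 of 10 without WT replicate 3. Without that array the median of the inhibitors was 0.0019, against 0.01 over all probe sets, and without Atxn1l knockout replicate 2 it was 0.01, against -0.0044. The mean of the 10 genes relative to the wild types was 0.02, 0.13, -0.01 and 0.01 in the Atxn1l knockouts, against 0.08, 0.05, -0.08 and -0.04 in their wild types, so the groups overlapped. In the Atxn1 set it was 0.08, 0.06 and 0.07 in knockouts, against -0.03, 0.01 and 0.02 in wild types, and the groups did not overlap. On the same arrays the summed markers of 3 other cell lists were also higher without overlap. These were alveolar type 1 cells (4 genes, 14.42 to 14.44 in knockouts and 14.34 to 14.38 in wild types), mesenchyme and smooth muscle (5 genes, 14.580 to 14.63 in knockouts and 14.54 to 14.579 in wild types) and erythroid cells (3 genes, 13.02 to 13.16 in knockouts and 12.68 to 13.01 in wild types). In the Atxn1 knockout 11 of 12 receptors and 12 of 14 cascade genes had changes above 0 as well. Their part in the inhibitors' mean was not tested. The effects of Atxn1l and Atxn1 loss were not shown to differ for any of the 10 genes in a fit of the 14 arrays, where 0.00943% of all probe sets passed. Unadjusted, 0 of 10 differences had a p under 0.05, where 3.24% of all probe sets did, and 4 of 10 differences lay above 0, against 53.5%. These differences ran from -0.20 for Dusp4 to 0.09 for Spred3 (smallest limma adjusted p = 0.999553), and the widest interval was that of Spry4, from -0.25 to 0.34.

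Some arrays stood high or low for several inhibitors at a time. The counts of inhibitors by array and of pairs that follow have no share over all probe sets beside them. Whether they differ from those of other genes was not tested. Atxn1l knockout replicate 2 held the highest value of its group for 6 of 10 genes (Dusp5, Spry1, Spry2, Spry4, Spred3 and Il17rd) and lay above the wild-type mean for 9. Replicate 3 of the wild types of that set lay below the wild-type mean for all 10. Knockout replicate 1, with high neutrophil markers, lay above the wild-type mean for 5 of 10. Macrophage markers (5 genes) had summed log2 levels of 11.67 to 12.25 in Atxn1l knockouts and 11.38 to 11.52 in their wild types. All 5 had a change above 0 and 1 passed, Chil3, a gene of alveolar macrophages, at 1.46 (SE 0.16, limma adjusted p = 0.0210). Its limma adjusted p was 0.0775, 0.0930, 0.0827 and 0.113 without knockout replicate 4 and WT replicates 1, 2 and 3 in turn. All 5 neutrophil markers also had a change above 0 and 0 passed, with summed levels of 11.64 to 13.51 in Atxn1l knockouts and 10.61 to 11.53 in wild types. In the Atxn1 set these were 11.92 to 12.29 in knockouts and 11.53 to 13.98 in wild types. The part of these cells in the inhibitors' values was not tested. Levels of each gene minus its group mean were compared between the inhibitors over the 14 arrays, in 45 pairs. Of these, 33 pairs had a Pearson r above 0, with a median of 0.23. Over the 8 arrays of the Atxn1l set 35 pairs lay above 0, over the 6 arrays of the Atxn1 set 20 pairs did, and 15 pairs lay above 0 in both.

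No pair passed an exact permutation test within the 4 groups after the Benjamini-Hochberg adjustment over the 45 pairs, by r or by Spearman's rho. At an unadjusted exact p under 0.05 there were 4 pairs by r and 2 by rho. Spry1 and Spry2 had the highest r, 0.82 (exact permutation p = 0.0328, adjusted p = 0.340), with rho = 0.71 (exact permutation p = 0.0563, adjusted p = 0.451). Within the sets r was 0.88 in the Atxn1l set and 0.20 in the Atxn1 set, and it was 0.66 over all arrays but the 2 farthest from the median of Spry1. Dusp5 and Spry4 had r = 0.71 (exact permutation p = 0.0209, adjusted p = 0.340) and rho = 0.56 (exact permutation p = 0.0671, adjusted p = 0.451). For this pair r was 0.67 in the Atxn1l set, 0.89 in the Atxn1 set and 0.57 without the 2 arrays farthest from the median of Dusp5. Dusp5 and Spry2 (r = 0.74) had r = 0.87 in the Atxn1l set and -0.17 in the Atxn1 set, and Spry1 and Il17rd (r = 0.64) had 0.74 in the Atxn1l set and -0.02 in the Atxn1 set. The lowest r was that of Dusp5 and Spred2, -0.59 (exact permutation p = 0.0791, adjusted p = 0.344). For that pair r was -0.49 in the Atxn1l set and -0.90 in the Atxn1 set. Spred2 and Il17rd had rho = 0.71 (exact permutation p = 0.0175, adjusted p = 0.451) and r = 0.72, with r = 0.73 in the Atxn1l set and 0.75 in the Atxn1 set. All values come from separately normalized sets with 8 and 6 arrays, and all genes on an array share its RNA. The permutations kept no pairs of knockout and wild-type arrays. If paired arrays share deviations, these exact p may be too small.

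**Figure D3:**
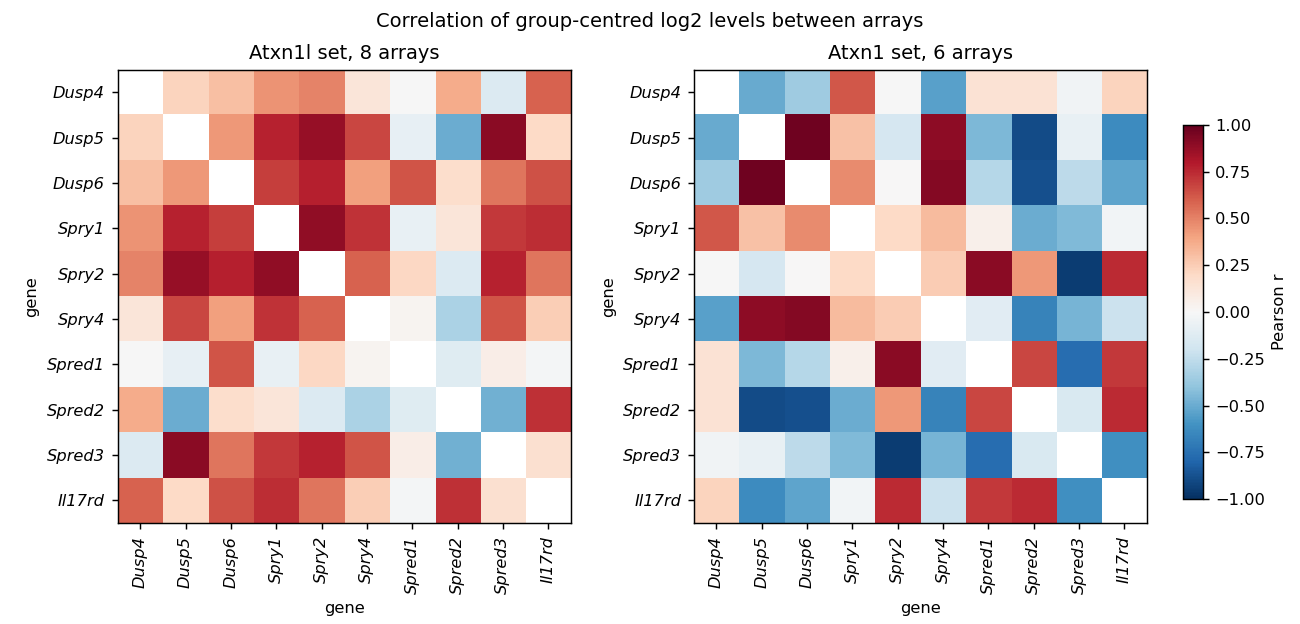
Pearson r between the group-centred log2 levels of each pair of ERK feedback inhibitors (both axes) over the 8 arrays of the Atxn1l set on the left and the 6 arrays of the Atxn1 set on the right. Red marks r above 0 and blue r below 0. On the left the Sprouty genes, Dusp5 and Dusp6 form a red block. Spred3 is red with each of them there, from r = 0.54 with Dusp6 to 0.90 with Dusp5. On the right Dusp5, Dusp6 and Spry4 are red with each other.

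**Figure D4:**
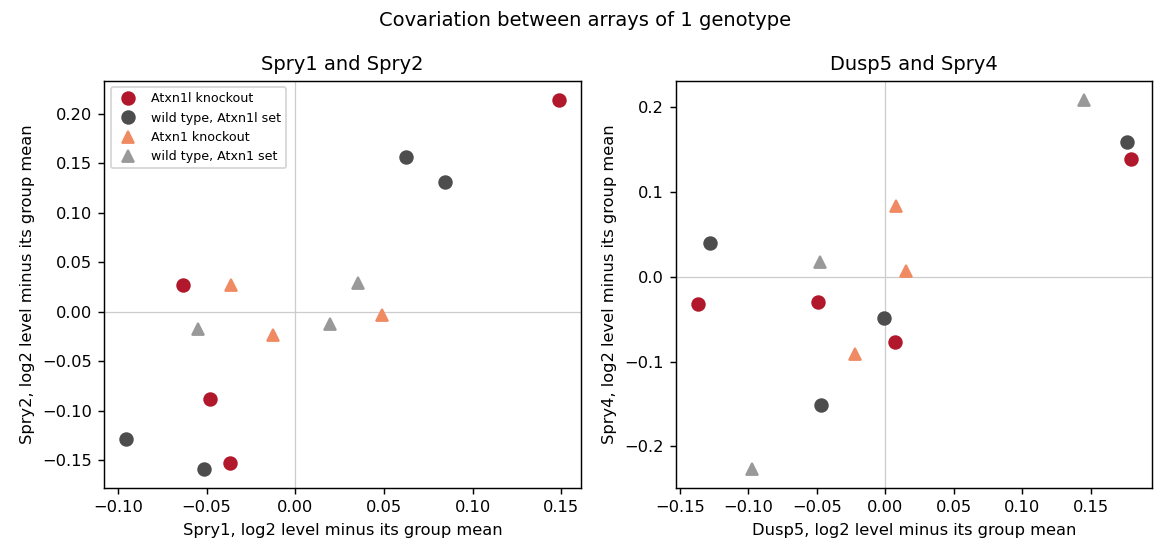
Log2 level minus the group mean on each of 14 arrays for Spry1 (x) against Spry2 (y) on the left and Dusp5 (x) against Spry4 (y) on the right, with circles for the Atxn1l set and triangles for the Atxn1 set. Spry1 and Spry2 spread along a line in the Atxn1l set (r = 0.88) and hardly vary in the Atxn1 set (r = 0.20), while Dusp5 and Spry4 run together in both (r = 0.67 and 0.89).

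The genes whose group-centred levels were most like those of 4 inhibitors were taken from all named genes, as a description over 14 arrays. For Dusp6 they were Fzd4 (r = 0.84), Eci2 (r = 0.84) and Kcnk6 (r = 0.83), and the closest other inhibitor, Spry2 (r = 0.65), stood at rank 189. For Dusp4 they were Fam234a (r = 0.91), Defa22 (r = 0.89) and Niban2 (r = 0.89), with Il17rd (r = 0.52) at rank 904. Spry2 was followed most closely by Wdsub1 (r = 0.91), Saraf (r = 0.91) and Ttll11 (r = 0.90), and Spry1 stood at rank 20. For Spry4 they were Psmg1 (r = 0.91) and the Krüppel-like transcription factor genes Klf4 (r = 0.86) and Klf2 (r = 0.86), and Dusp5 stood at rank 63. These ranks are among the 18784 named genes, and none of these inhibitors had another inhibitor among its 3 closest genes. With so many genes, that does not show that the inhibitors vary apart.

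Among the other genes of the ERK pathway, 1 passed. Of 16 ERK-induced genes, Etv4, a PEA3 transcription factor and Capicua target, rose in the Atxn1l knockout by 0.48 (SE 0.05, limma adjusted p = 0.0130), at 8.42 ± 0.06 against 7.94 ± 0.04 in wild types (SD, n = 4 each). The call was lost without knockout replicate 4 (limma adjusted p = 0.0701), WT replicate 1 (limma adjusted p = 0.0624) or WT replicate 2 (limma adjusted p = 0.0549), with values of 0.48 to 0.49. The other 15 did not pass, and the list's median was 0.04. Its relatives Etv5 (0.07) and Etv1 (-0.02) did not pass in the Atxn1l knockout, nor did Etv1 (0.17), Etv5 (0.13) and Etv4 (0.09) in the Atxn1 knockout. Ccnd1, a cyclin of the G1 phase, had 0.14 in the Atxn1l knockout (limma adjusted p = 0.527) with all knockouts above all wild types, as for 2.76% of all probe sets. Egr1, an immediate early gene, had -0.48 (SE 0.22, limma adjusted p = 0.602), with an SD of 0.139 in knockouts and 0.541 in wild types.

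Of 15 measured ligands none passed in either knockout, with medians of -0.05 in the Atxn1l and 0.05 in the Atxn1 knockout. The 3 of smallest p in the Atxn1l knockout, Fgf7, Hgf and Fgf10, had values below 0 and the next, Igf1, a value above 0. Fgf7 had 9.48 ± 0.04 in knockouts and 9.67 ± 0.11 in wild types (SD, n = 4 each), a change of -0.20 (SE 0.06, limma adjusted p = 0.419). Hgf, the ligand of Met, had -0.19 (SE 0.06, limma adjusted p = 0.420), and Fgf10, the ligand of the branching airway, had -0.17 (SE 0.07, limma adjusted p = 0.562). Igf1, named here after its value was seen, had 0.22 (SE 0.09, limma adjusted p = 0.562). Fgf7 and Hgf did not overlap between the groups. Neither did Fgf1 (-0.10, SE 0.05, limma adjusted p = 0.590), named here after its value was seen. The groups of 2.56% of all probe sets did not overlap in that direction. Of 12 receptors none passed. The values of smallest p in the Atxn1 knockout were those of Egfr (0.17, SE 0.05) and Erbb3 (0.18, SE 0.06), receptors of the EGF family, followed by Igf1r (0.10, SE 0.05), the receptor of insulin-like growth factors. All 3 had knockouts above all wild types, as did 2.85% of all probe sets. In the Atxn1l knockout the smallest p was that of Fgfr4 (-0.10, SE 0.06).

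Of 14 measured genes of the ERK cascade none passed, with medians of -0.0036 in the Atxn1l and 0.03 in the Atxn1 knockout. Rasa1, a Ras GTPase activator, had -0.16 (SE 0.06, limma adjusted p = 0.512) in the Atxn1l knockout, and Gab1, an adaptor of receptor kinases, had 0.08 (SE 0.05) in the Atxn1 knockout. Of 7 other MAP kinase phosphatases none passed, with Dusp10 at -0.15 (SE 0.08, limma adjusted p = 0.682) in the Atxn1l knockout and 0.09 (SE 0.09) in the Atxn1 knockout. None of 3 measured other feedback inhibitors passed: Errfi1, an inhibitor of EGF receptors, had -0.10 (SE 0.10) and 0.13 (SE 0.22) in these knockouts. Cic, which encodes Capicua, had 0.14 (SE 0.05, limma adjusted p = 0.527) in the Atxn1l and 0.05 (SE 0.05) in the Atxn1 knockout.

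**Figure D5:**
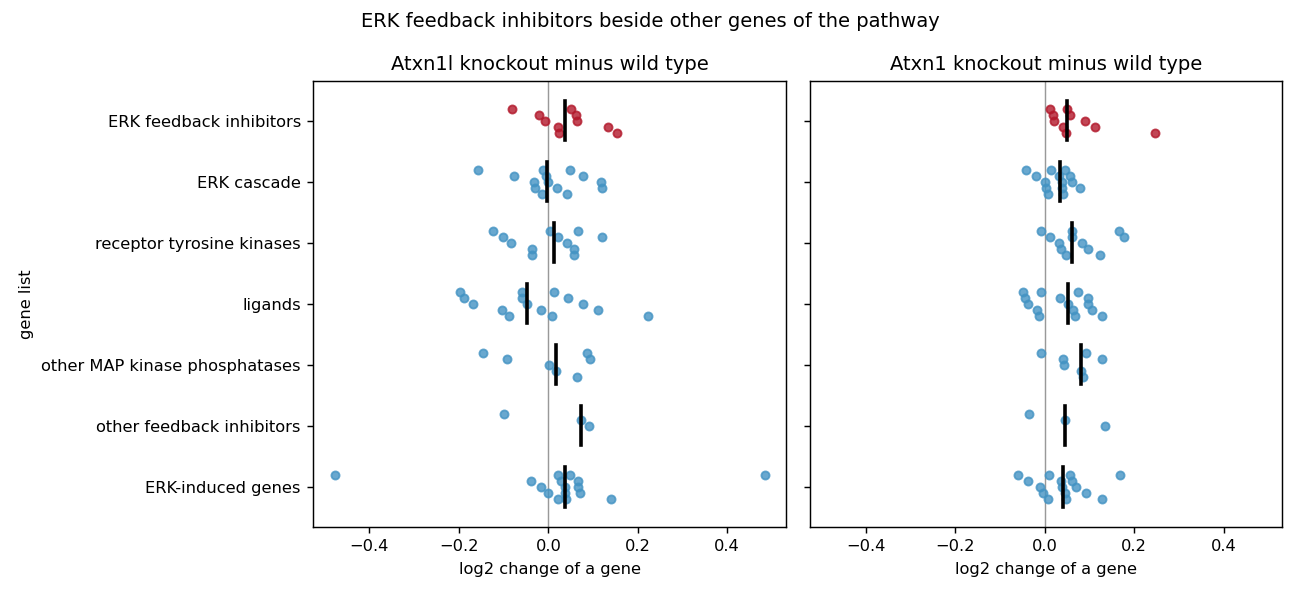
Log2 change of each gene, knockout minus wild type (x axis), for the 10 ERK feedback inhibitors in red and 6 other lists of the pathway in blue, with the Atxn1l knockout on the left and the Atxn1 knockout on the right; black bars are medians. The inhibitors lie from -0.08 to 0.15 and from 0.01 to 0.25, and the point at 0.48 among the ERK-induced genes is Etv4.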

How the data were processed

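Total RNA of 14 mouse lungs (100 ng per array) was measured on Affymetrix mouse Gene ST arrays. Per the submitters' processing notes and the series' design text, the authors made the deposited log2 values with RMA, separately for the 8 arrays of the Atxn1l set and the 6 of the Atxn1 set; the notes also name limma. Probe sets are numbered by Entrez gene, and the version of their definition is not stated in those sources. Of 21212 probe sets, 18786 had 1 symbol, 6 several and 2420 none.

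The deposited log2 values were then modelled over all probe sets in R 4.3.3 using limma 3.58.1, lmFit and eBayes with no covariate, two-sided, with the Benjamini-Hochberg adjustment over 21212, and the difference between knockouts with 4 group means over 14 arrays. SE and 95% intervals are those of limma, and SD is taken over the arrays of each group. Exact permutation tests were two-sided, over arrays for single genes (smallest p 0.0286 for 4 against 4 and 0.1 for 3 against 3) and within the 4 groups, 20736 permutations, for correlations. Named were the 10 inhibitors, up to 3 genes of smallest p per pathway list and the 3 closest genes of Dusp6, Dusp4, Spry2 and Spry4; of 78 pathway and 59 marker entries, 70 and 53 were matched, and the others were not analysed here. Atxn1, Atxn1l, Cic and the Etv genes were named besides. Members and lists were chosen with earlier results of these data known. All 10 inhibitors passed a filter at the 25th percentile of mean level in both sets. The fit was tested on simulated data. Nothing in the labels says that the arrays come from separate litters, so p-values measure the spread between these samples.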

Additional observations from a re-analysis of the deposited data

Results flagged for a closer look

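In the Atxn1l knockouts, replicate 2 stood far from the other 3 arrays for 2 genes, by the gap to the nearest array over the group's range. Spry1 had 11.79 there and 11.58 to 11.60 on the other knockouts. Spred3 had 8.25 there and 8.13 to 8.15 on the others. In all, 20 groups of 4 arrays were examined, and chance gives about 1 such array in 20 groups. Without this array Spry1 had a change of -0.03 (SE 0.06) and Spred3 of 0.11 (SE 0.06, limma adjusted p = 0.765), against 0.02 and 0.13 with it.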

How the results depend on the processing

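No inhibitor passed in either knockout, or in the difference between them, under any alternative run. The alternatives were median centring, cyclic loess, joint quantile normalization, array weights, a trended robust prior, removal of the dimmest probe sets, an adjusted p under 0.1, a covariate for Xist, a replicate block, 14 arrays in 1 fit and leaving out each array. The smallest limma adjusted p of an inhibitor was 0.429 in the Atxn1l knockout (Spred3, replicate block) and 0.138 in the Atxn1 knockout (Dusp4 and Spred2, array weights). Over the alternatives Dusp4 had 0.19 to 0.30 in the Atxn1 knockout and Spred3 0.10 to 0.17 in the Atxn1l knockout. Of 170 single values in the Atxn1l knockout 157 kept their direction, as did 138 of 150 in the Atxn1 knockout, and 6 and 5 genes did so in all.

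The number of all probe sets called in the Atxn1l knockout was 2 with the replicate block, against 9, and 2 to 25 in the 8 fits without 1 array, each over 1.5 times from 9. In the Atxn1 knockout array weights called 1 probe set, against 0. The cause was not tested. Of the named genes called there, Atxn1l passed under 17 of 17 alternatives, Etv4 under 13 of 17 (not with the replicate block, limma adjusted p = 0.0880) and Chil3 under 11 of 16 (not with 14 arrays in 1 fit, limma adjusted p = 0.0782), each in its direction throughout. Same-numbered arrays correlated in their deviations at 0.04 to 0.38 in the Atxn1l set, where arrays of different number had -0.24 to 0.25. In the Atxn1 set these values were -0.42 to 0.42 and -0.37 to 0.37. They do not settle which arrays form a pair. The numbers were not taken as pairs in the main fit, and the replicate block gives the fit with them.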
